A study of Mus musculus with 6 samples.

Results

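The genes described here are 10 genes that mark cholinergic neurons and spinal motor neurons: Chat, Slc5a7, Slc18a3, Ache, Isl1, Isl2, Mnx1, Chodl, Mmp9 and Spp1. They were taken as every probe set that the platform annotation, with symbols updated through a RefSeq gene table, pairs with 1 of these symbols. A probe set is a group of short oligonucleotides on the array that reports on 1 transcript or a part of it. Of the 10 genes, 9 had a probe set so annotated, with 11 probe sets among 45037 that were not controls, and Spp1 was not analysed here.

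The arrays measured messenger RNA of whole spinal cord from 6 untreated male C57Bl/6 mice aged 4 months, 3 labelled Nogo-A KO (knockout) and 3 labelled wildtype (WT), with 1 Affymetrix Mouse 430 2.0 array for each animal. The series asks how the adult, uninjured cord differs when Nogo-A is missing. Nogo-A, the longest protein encoded by Rtn4, sits in the membranes of oligodendrocytes and of some neurons and inhibits the outgrowth of axons. How the knockout allele was made and whether the mice were littermates is not given in the sources used here.

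Motor neurons of the spinal cord release acetylcholine onto muscle. The enzyme encoded by Chat joins choline with an acetyl group, the transporter encoded by Slc18a3 loads the product into synaptic vesicles, the esterase encoded by Ache splits it in the synaptic cleft, and the transporter encoded by Slc5a7 takes the freed choline back up. Isl1, Isl2 and Mnx1 encode homeodomain transcription factors that give motor neurons their identity in the embryo, while Chodl and Mmp9 mark motor neurons of fast motor units in the adult. Cells of these kinds are a small minority of the cord, and in whole tissue fewer cells of a type and less RNA per cell cannot be told apart.

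Slc18a3 lies within the span of Chat in the RefSeq gene table, on the same strand, an arrangement called the cholinergic gene locus, and the 2 start sites are 1059 bases apart. The promoters of this pair are shown because the 2 genes share a locus and differed in how well the array measured them, and that of Ache because this gene stood furthest apart between the genotypes among the brightest probe sets of each gene. The sequences are those of RefSeq, build GRCm38.p6, with 250 bases before and 50 after the start site, written 5′ to 3′ on the strand of the gene. They are chr14:32464801-32465100 on the minus strand for Slc18a3, chr14:32465860-32466159 on the minus strand for Chat and chr5:137288004-137288303 on the plus strand for Ache. Capitals mark the GC box, searched as GGGCGG on both strands with overlapping matches counted separately.
Slc18a3: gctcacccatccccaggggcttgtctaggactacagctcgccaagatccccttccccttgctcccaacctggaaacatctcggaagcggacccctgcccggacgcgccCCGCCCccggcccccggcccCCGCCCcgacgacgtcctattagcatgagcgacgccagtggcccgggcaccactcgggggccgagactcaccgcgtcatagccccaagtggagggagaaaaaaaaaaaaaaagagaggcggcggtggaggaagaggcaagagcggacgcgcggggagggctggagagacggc
Chat: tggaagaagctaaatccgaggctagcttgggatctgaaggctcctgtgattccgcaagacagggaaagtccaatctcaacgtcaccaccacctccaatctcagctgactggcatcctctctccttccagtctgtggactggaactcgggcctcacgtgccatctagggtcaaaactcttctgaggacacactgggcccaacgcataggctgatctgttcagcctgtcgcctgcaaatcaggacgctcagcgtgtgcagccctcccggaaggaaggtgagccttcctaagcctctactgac
Ache: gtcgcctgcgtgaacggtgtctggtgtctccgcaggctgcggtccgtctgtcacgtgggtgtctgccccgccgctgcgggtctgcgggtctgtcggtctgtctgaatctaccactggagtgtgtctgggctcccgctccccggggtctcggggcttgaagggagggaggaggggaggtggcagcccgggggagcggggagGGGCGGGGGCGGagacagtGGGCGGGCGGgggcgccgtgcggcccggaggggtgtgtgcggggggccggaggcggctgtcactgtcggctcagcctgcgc

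The GC box occurred 2 times in the Slc18a3 window and 4 times in the Ache window, and it was not in the Chat window. Of all 32851 promoter windows of this length, 35.7% held at least 1. The homeodomain core TAAT, the kind of letters that factors such as Isl1 and Mnx1 can bind, occurred 1 time in the Slc18a3 window, starting 104 bases before the start site, and was in neither the Chat nor the Ache window. It was found in 58% of all windows on either strand. GC content was 67% for Slc18a3, 55.7% for Chat and 74% for Ache. The arrays did not measure promoters, so these matches describe the letters only.

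The label of the knockout arrays was checked on Rtn4 first. Its probe set 1437224_at had signals of 78.2, 9.17 and 5.08 on the Nogo-A KO arrays, against 3560.2, 2790.4 and 2802 on the WT arrays (limma, Benjamini-Hochberg adjusted p = 0.00945). The other 4 Rtn4 probe sets were brighter on each Nogo-A KO array than on every WT array, with log2 differences of 0.42 to 0.72 and a limma adjusted p of 0.599 each. Dim signals were not equal between arrays. The median was 143.8 to 149.0 on the Nogo-A KO arrays and 147.9 to 195.4 on the WT arrays, and the 5th percentile was 4.57 to 4.91 on the Nogo-A KO arrays and 5.26 to 19.97 on the WT arrays. WT replicate 1, at 147.9 and 5.26, lay near the Nogo-A KO arrays. WT replicates 2 and 3 had medians of 169.2 and 195.4 and 5th percentiles of 10.45 and 19.97. WT replicate 3 also had the lowest mean correlation with the other arrays, 0.930, against 0.951 to 0.961 for the rest. All 10 pan-neuronal markers lay at or above the median of every array.

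No cholinergic or motor neuron gene passed the test between genotypes. Of the 9 measured genes, 6 were bright enough to be tested, by 7 probe sets, and 0 of 6 had a limma adjusted p under 0.05. Over all 23546 tested probe sets, 1 passed, which is 0.00425%, and it was the Rtn4 probe set above. Probe sets entered the test if they reached their array's median on 2 or more of the 3 arrays in either genotype. At an unadjusted p under 0.05, 1 of the 6 genes, Ache, was higher in Nogo-A KO and 0 were lower. Over the brightest tested probe set of all 11651 genes, 5.54% were higher and 2.93% lower at that level. The median log2 difference of the 6 genes, Nogo-A KO minus WT, was 0.11, with 5 of 6 above 0, and 61% of all genes lay above 0. The median of all tested probe sets was 0.034. The median of the 6 genes was -0.0041 without WT replicate 2, 0.060 without knockout replicate 1 and 0.24 without WT replicate 3. It was 0.21 without knockout replicate 3 or WT replicate 1. With the mean of all tested probe sets of a gene it was 0.22, and Mmp9 was 0.41 there. Division by the median of all probe sets gave 0.30 and moved the median of all tested probe sets to 0.23.

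**Figure D1:**
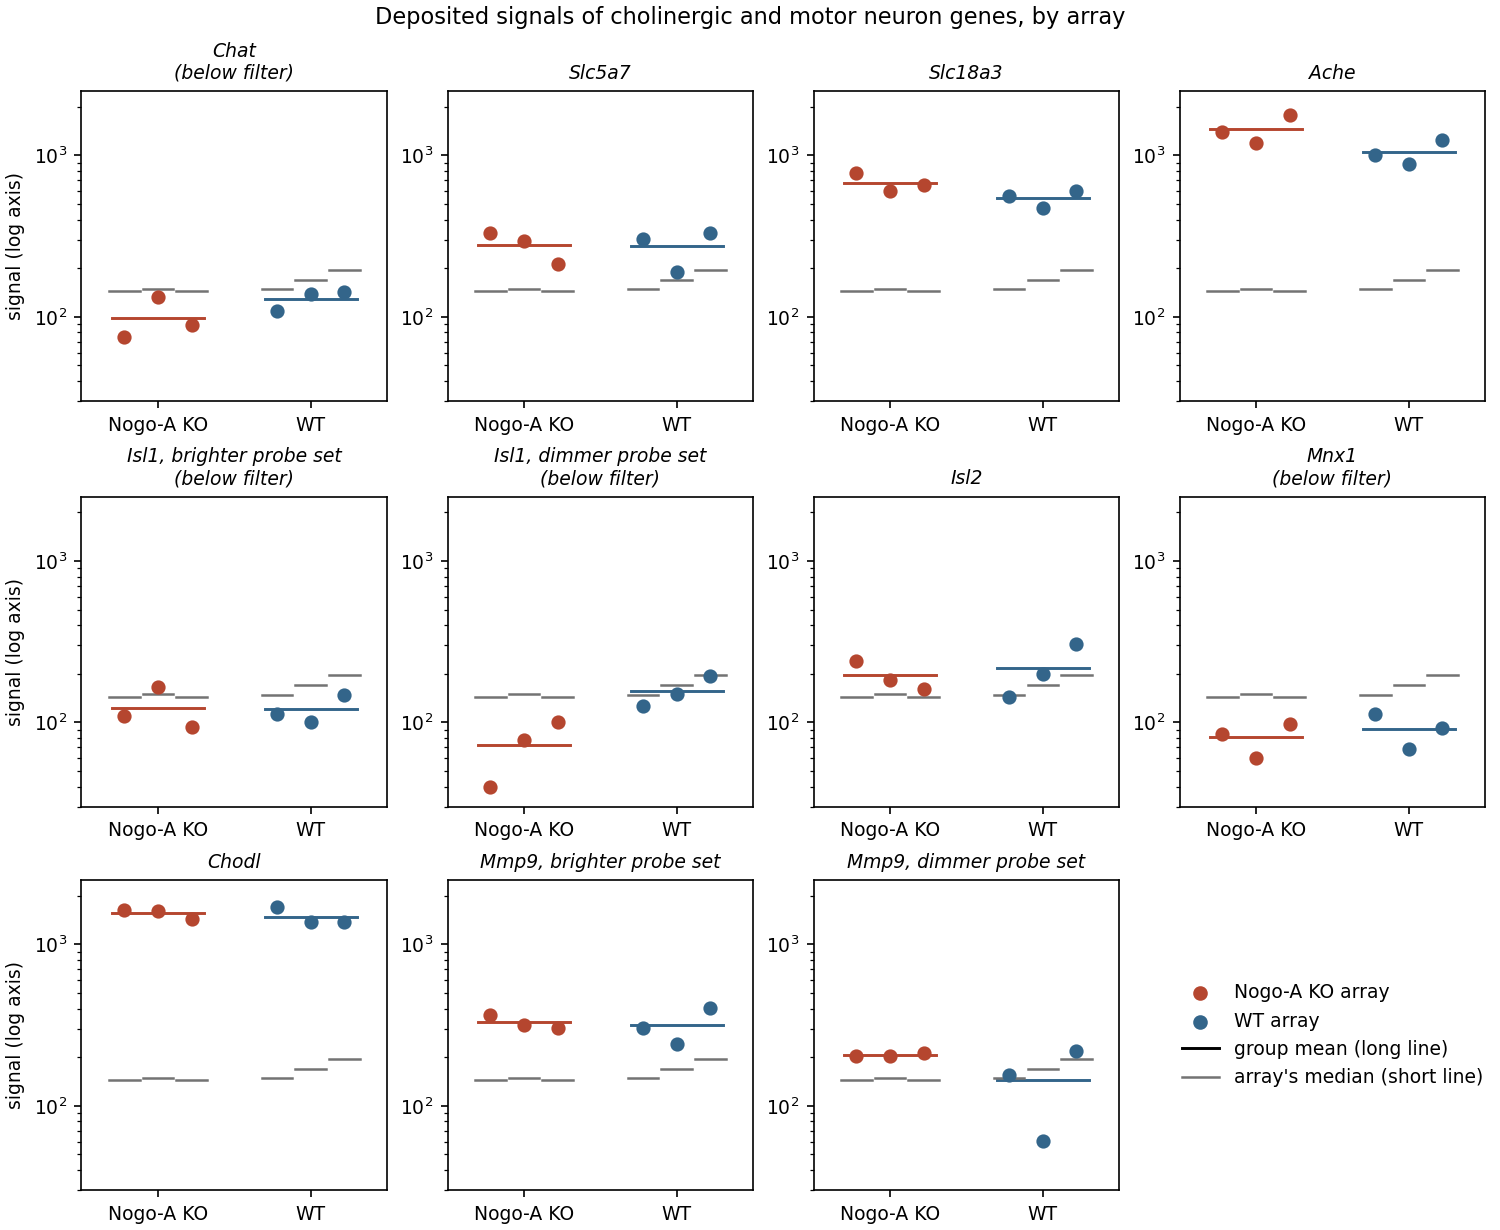
Deposited signals of the 11 probe sets on a log axis, with the 3 Nogo-A KO arrays on the left and the 3 WT arrays on the right of each panel. Points are arrays, long lines are group means and short grey lines are the median of each array. Chat, Mnx1 and both Isl1 probe sets lie at or under the grey lines on nearly all arrays, while Ache, Chodl and Slc18a3 lie far above them.

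Ache showed the widest separation among the brightest probe sets of the 6 tested genes. Its probe set 1422635_at had signals of 1401, 1197 and 1771 on the Nogo-A KO arrays, against 1008, 890.2 and 1254 on the WT arrays. The ranges overlapped by a little, since the lowest Nogo-A KO array lay under the highest WT array. Mean signals were 1456 ± 291 in Nogo-A KO and 1051 ± 186 in WT (SD, n = 3 each), and the log2 difference was 0.49 with a standard error of 0.17 and a 95% interval of 0.13 to 0.85, or 1.41-fold (limma unadjusted p = 0.0118, adjusted p = 0.599). After division by the array median over tested probe sets, 3 of 3 Nogo-A KO values lay above every WT value. Such separation on the higher side held for 8.89% of tested probe sets on the scaled values and for 7.84% on the deposited signals.

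Slc18a3, whose product fills synaptic vesicles with acetylcholine, followed Ache. Probe set 1422203_at gave 773, 602 and 652 on the Nogo-A KO arrays, against 559, 472 and 603 on the WT arrays. As with Ache, knockout replicate 2 was the lowest of its group and WT replicate 3 the highest, and the deposited signals of those 2 arrays were 602.2 and 603.1. Means were 676 ± 88.0 in Nogo-A KO and 545 ± 66.5 in WT (SD, n = 3 each). The log2 difference was 0.34 with a standard error of 0.16 and a 95% interval of -0.0045 to 0.68 (limma unadjusted p = 0.0526, adjusted p = 0.606). The scaled values did not overlap. Thus 2 of the 7 tested probe sets, of Ache and Slc18a3, were separated on the higher side after scaling, against 8.89% of all tested probe sets. On the deposited signals it was 0 of 7, against 7.84%.

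Signal level moved with the genotype difference over the whole array, which bears on both genes. Tested probe sets with a mean signal of 1000 to 2000, the range of Ache, had a median log2 difference of 0.065, and 6.14% of them were higher and 1.30% lower at an unadjusted p under 0.05. Those of 500 to 1000, the range of Slc18a3, had a median of 0.035, and those under 250 had -0.087. The part of this pattern in the values of Ache and Slc18a3 was not tested.

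On 2 arrays skeletal muscle genes were bright. Acta1, which encodes skeletal alpha-actin, had 657, 4593 and 536 on the Nogo-A KO arrays, against 385, 754 and 2142 on the WT arrays, so knockout replicate 2 and WT replicate 3 were the brightest. The summed signal of the 12 muscle markers ran from 7173 to 25124 in Nogo-A KO and from 6741 to 13681 in WT. Pvalb, which neurons also express, read 4870, 6349 and 4999 on the Nogo-A KO arrays, against 5116, 5035 and 4866 on the WT arrays. It made up most of the sum on every array but knockout replicate 2 and WT replicate 3. Without those 2 arrays the log2 difference was 0.73 for Ache (limma unadjusted p = 0.000514, adjusted p = 0.115) and 0.46 for Slc18a3 (unadjusted p = 0.0212, adjusted p = 0.312). For both genes these were the lowest Nogo-A KO array and the highest WT array, so leaving them out had to widen the differences. The part of muscle RNA in these values was not tested, and this comparison was added after the data were seen.

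Slc5a7, the choline transporter that limits the supply for new acetylcholine, showed no separation of the genotypes. Probe set 1421428_at read 328, 297 and 211 on the Nogo-A KO arrays, against 305, 189 and 333 on the WT arrays. Both groups spanned nearly the same range, with means of 279 ± 60.8 in Nogo-A KO and 275 ± 76.4 in WT (SD, n = 3 each). The log2 difference was 0.061 with a 95% interval of -0.53 to 0.65, so differences within that interval could not be told from 0 (limma adjusted p = 0.964).

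Chat, the defining enzyme of cholinergic neurons, was not measurable in a useful way. Its only annotated probe set, 1440070_at, read 75.1, 132 and 88.7 on the Nogo-A KO arrays, against 108, 138 and 142 on the WT arrays. All 6 values were under their array's median, and the groups overlapped. Means were 98.7 ± 29.8 in Nogo-A KO and 129 ± 18.4 in WT (SD, n = 3 each), and no test was made. Among the 21491 probe sets below the filter, 73.7% had a lower mean in Nogo-A KO, and the median log2 ratio of mean signals was -0.48, whereas it was -0.0016 in the tested ones. A lower dim signal in Nogo-A KO than in WT was thus common over the array, with the highest medians and 5th percentiles on WT replicates 2 and 3. The direction of Chat cannot be read from its values. The dim signal of Chat and the brighter signal of Slc18a3 differ in probe set as well as in gene, so the 2 levels are not set against each other.

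**Figure D2:**
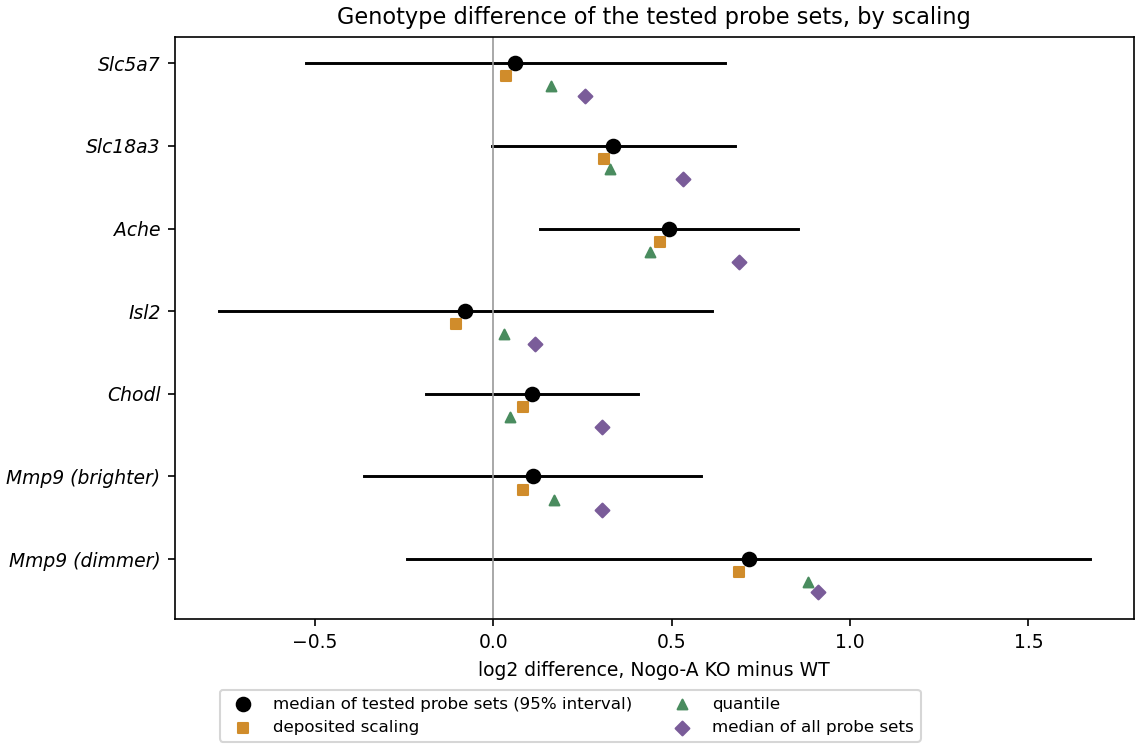
Log2 difference of the 7 tested probe sets, Nogo-A KO minus WT, with 95% intervals for values divided by the array median over tested probe sets (black). Coloured marks give the same difference under 3 other scalings. The interval of Ache alone lies above 0, that of Slc18a3 just crosses it, and the marks of Isl2 lie on both sides of 0.

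Of the transcription factors of motor neuron identity, Isl1 and Mnx1 were dim in the adult cord, while Isl2 reached its array's median on 5 of 6 arrays. Isl1 was read by 2 probe sets, both designed on the same sequence record. The brighter, 1450723_at, had 109.8, 166 and 93.2 on the Nogo-A KO arrays, against 113, 101 and 148 on the WT arrays, and the groups overlapped. The dimmer, 1422720_at, had 39.9, 77.3 and 99.7 on the Nogo-A KO arrays, against 126, 151 and 193 on the WT arrays, and all 3 Nogo-A KO values lay under every WT value. Its mean ratio, Nogo-A KO over WT, was 0.462, while that of the brighter probe set was 1.02. Neither passed the filter, and they were not tested. Separation on the lower side held for 12% of all probe sets below the filter, against 2.06% on the higher side, so such a pattern was frequent among dim probe sets.

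Isl2, the close relative of Isl1, passed the filter in both genotypes. Probe set 1418676_at read 241, 184 and 161 on the Nogo-A KO arrays, against 144, 200.3 and 308 on the WT arrays. The WT arrays spanned the whole range of the Nogo-A KO arrays, with means of 195 ± 41.7 in Nogo-A KO and 217 ± 83.2 in WT (SD, n = 3 each). The log2 difference was -0.079 with a 95% interval of -0.77 to 0.61 (limma adjusted p = 0.960), and its sign was turned by quantile normalization, to 0.030. Mnx1, which holds back interneuron genes in motor neurons, was under the array median everywhere: 1460299_at read 84.5, 59.7 and 98.1 on the Nogo-A KO arrays, against 112, 68.8 and 92.4 on the WT arrays. These values overlapped and were not tested.

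Markers of adult motor neuron subtypes did not separate the groups. Chodl, a membrane lectin of fast motor neurons, had 1628, 1619 and 1438 on the Nogo-A KO arrays at 1451440_at, against 1704, 1369.6 and 1370.1 on the WT arrays. Means were 1562 ± 107 in Nogo-A KO and 1481 ± 193 in WT (SD, n = 3 each). Its 95% interval was the narrowest of the 7 tested probe sets, from -0.19 to 0.41 on the log2 scale around a difference of 0.11 (limma adjusted p = 0.839). The interval spans a small decrease and a moderate increase of Chodl.

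Mmp9, a matrix protease of fast motor neurons that neutrophils also make, was read by 2 tested probe sets. The brighter, 1416298_at, had 364, 319 and 303 on the Nogo-A KO arrays, against 302, 241 and 406 on the WT arrays, with a log2 difference of 0.11 and a standard error of 0.22 (limma adjusted p = 0.906). The dimmer, 1448291_at, had 202, 203 and 213 on the Nogo-A KO arrays, against 156, 60.8 and 219.7 on the WT arrays. The 3 Nogo-A KO values lay within a narrow band inside the WT range, and the log2 difference of 0.72 had a standard error of 0.44 (limma adjusted p = 0.674), with WT replicate 2 far under the other arrays. Both probe sets were at their lowest on that array, and they followed each other over the 6 arrays with a Pearson r of 0.85. The 8 neutrophil markers summed to 9614 to 11675 in Nogo-A KO and to 2484 to 13519 in WT, with the lowest sum on WT replicate 1. Of these markers 7 of 8 had a log2 difference above 0, against 61% of all genes. Elane and Mpo, both above 0, and Csf3r, below 0, passed the filter through the Nogo-A KO arrays alone. The part of neutrophil RNA in the Mmp9 values was not tested.

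Leaving out 1 array in turn showed which arrays the differences rested on. Ache ranged from 0.34, without knockout replicate 3, to 0.62, without knockout replicate 2, and Slc18a3 from 0.24 to 0.41, all above 0. The unadjusted p of Ache was 0.0720 without knockout replicate 3 and 0.0541 without WT replicate 2, and its limma adjusted p ran from 0.228 to 0.966 over the 6 fits. Slc5a7 took values from -0.19 to 0.25, Isl2 from -0.32 to 0.18 and the brighter Mmp9 probe set from -0.067 to 0.28, so the sign of these 3 turned with single arrays. Chodl stayed between 0.031 and 0.24.

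**Figure D3:**
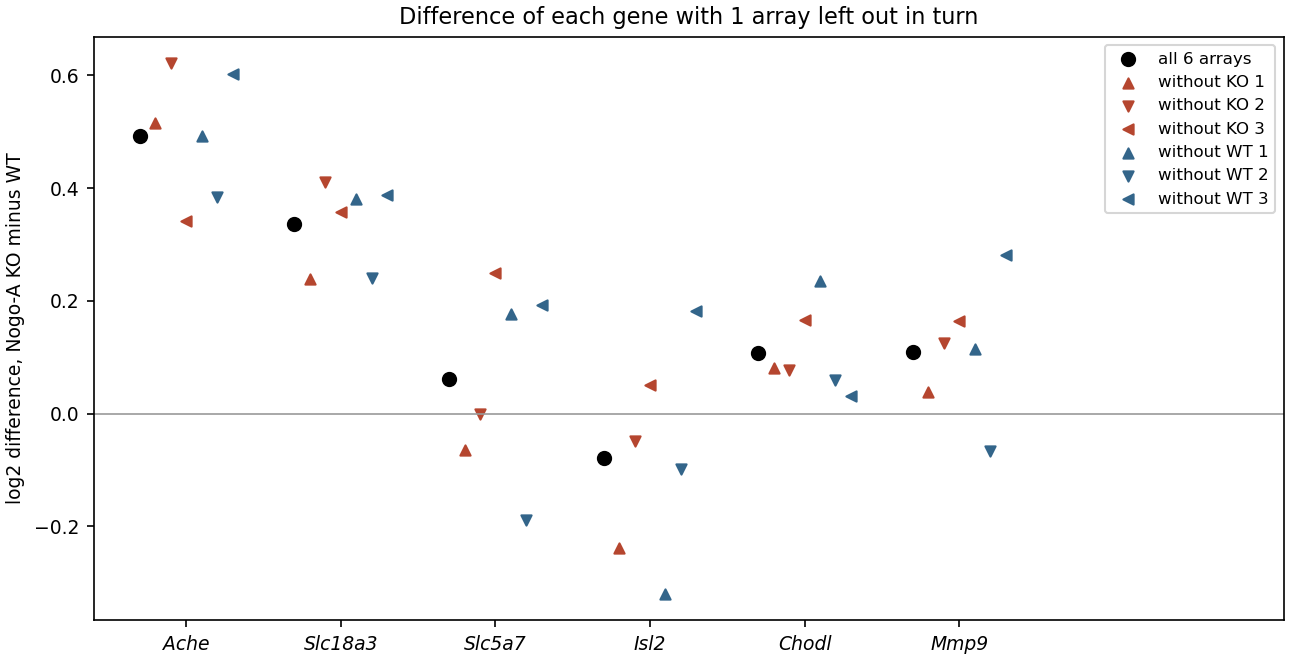
Log2 difference, Nogo-A KO minus WT, of the brightest probe set of each tested gene with all 6 arrays (black) and with each array left out (red, Nogo-A KO arrays; blue, WT arrays). Ache, Slc18a3 and Chodl stay above 0 throughout, while Slc5a7, Isl2 and Mmp9 have values on both sides of 0.

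Pairs of these genes varied together to differing degrees over the arrays. Pearson r over the 6 arrays, given as a description of scaled log2 values that share array and genotype, was 0.78 between Ache and Slc18a3, 0.53 between Slc5a7 and Slc18a3 and 0.090 between Slc5a7 and Ache. For Chat and Slc18a3, the neighbours of the cholinergic locus, it was -0.84, with Chat in the dim range throughout. The 2 Isl1 probe sets had 0.026. The 5 genes whose values most resembled the mean of Chat, Slc5a7 and Slc18a3 were Pmepa1, Bola1, Rnf111, Khsrp and Bace1. Their r was 0.987, 0.986, 0.983, 0.977 and 0.976. Chat was under the filter and ran against Slc18a3 in this mean, so likeness to it is not likeness to a shared cholinergic profile. Among 20457 probe sets compared, 71 had an r over 0.9.

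Receptors for acetylcholine and genes of choline handling did not pass either. Of 30 listed genes, 28 had a probe set and 13 were tested, of which 0 passed the adjusted threshold in limma in either direction. At an unadjusted p under 0.05, 1 was higher and 1 lower, and of all genes 5.54% were higher and 2.93% lower. A log2 difference above 0 was found for 10 of 13, against 61% of all genes, and the median was 0.16. That median was 0.079 with the mean of all tested probe sets of a gene and 0.36 after division by the median of all probe sets. The muscarinic receptor gene Chrm1 read 85.8, 120.3 and 105 on the Nogo-A KO arrays, against 177, 235 and 315 on the WT arrays, a log2 difference of -1.17 (limma adjusted p = 0.599). All 3 Nogo-A KO values were under their array's median, so it was tested through the WT arrays. Chrm1 was the 1 lower gene, so that count holds a gene that passed the filter only where it was high. Of tested probe sets with a mean signal under 250, the level of Chrm1, 6.08% were lower and 2.2% higher at an unadjusted p under 0.05 in limma. Chkb, a choline kinase, read 908, 867 and 1024 on the Nogo-A KO arrays, against 819, 740.5 and 692 on the WT arrays (log2 difference 0.34, limma adjusted p = 0.599).

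The next 3 of that list by p were the choline transporter gene Slc44a2 at 0.25, Prima1, which anchors acetylcholinesterase in neuronal membranes, at 0.24, and Bche, the second cholinesterase, at 0.33, with limma adjusted p-values of 0.625 to 0.673. For Prima1 the signals were 595, 613 and 673 on the Nogo-A KO arrays, against 515, 545 and 557 on the WT arrays. The muscle receptor subunits Chrna1, Chrnb1, Chrnd, Chrne and Chrng and the neuronal subunits Chrna2, Chrna5, Chrna6, Chrnb3 and Chrnb4 lay under the array median on all 6 arrays at their brightest probe set. Of the neuronal subunits, Chrna4, Chrna7 and Chrnb2 were tested and had log2 differences of -0.027, 0.15 and 0.16.

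Other motor neuron genes gave a similar picture. Of 30 listed, 28 had a probe set and 20 were tested, with 0 past the adjusted threshold in limma, 3 higher and 1 lower at an unadjusted p under 0.05, and a median log2 difference of 0.11. That median was 0.037 without WT replicate 3 and 0.038 with the mean of all tested probe sets of a gene. Division by the median of all probe sets gave 0.31. The matching shares over all genes were 5.54% on the higher side and 2.93% on the lower side. Prph, an intermediate filament of neurons with peripheral axons, read 1649.8, 1206 and 1280.4 on the Nogo-A KO arrays, against 1219, 841 and 1108 on the WT arrays (log2 difference 0.41, limma adjusted p = 0.599). Nefh, the heavy neurofilament, had a difference of 0.25. Rbfox3, a nuclear protein of neurons that is also in the pan-neuronal list, had 0.33. Agrn, which encodes the agrin that clusters muscle receptors, had 0.26. Prph, Nefh and Rbfox3 were the 3 higher genes. At the signal level of Nefh and Rbfox3, 2000 and over, the share of such tested probe sets was 10.8%, against 0.32% for lower ones. At the level of Prph, 1000 to 2000, these shares were 6.14% and 1.30%. Lhx3, a partner of Isl1 in motor neuron specification, read 45.3, 84.4 and 111 on the Nogo-A KO arrays, against 165, 140.3 and 207 on the WT arrays (log2 difference -1.14, limma adjusted p = 0.601). It was the 1 lower gene of this list, and it too was tested through the WT arrays only. At its level, a mean signal under 250, 6.08% of tested probe sets were lower and 2.2% higher at an unadjusted p under 0.05. Esrrg, a marker of gamma motor neurons, and Ret, a receptor of motor neurons for neurotrophic factors, had differences of 0.039 and 0.044.

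Markers of other cells were read from the same fit. All 10 pan-neuronal markers had a log2 difference above 0, with a median of 0.18, and 3 of 10 were higher at an unadjusted p under 0.05. Of all genes 61% lay above 0, and probe sets with a mean signal of 2000 and over had a median of 0.12, with 10.8% higher and 0.32% lower at that p. Snap25, a protein of synaptic vesicle release, had 0.076 and Nefl, the light neurofilament, 0.21. Other spinal neuron markers had a median of -0.018 over 7 tested, with 3 above 0, among them Lmx1b, which passed the filter through the Nogo-A KO arrays alone. Slc17a6 of glutamatergic neurons was at -0.024. The genes of inhibitory neurons went both ways, with Gad1 at 0.15, Slc32a1 at 0.27, Gad2 at -0.22 and Slc6a5 at -0.018. The summed signal of the other spinal neuron markers was 20307 to 20927 in Nogo-A KO and 18669.5 to 21982 in WT. Sensory ganglion markers, which share Isl1 and Isl2 with motor neurons, summed to 473 to 1025 in Nogo-A KO and 455 to 882 in WT. Of 7 with a probe set, Trpv1, Scn10a and P2rx3 lay under the array median on every array, and the brightest, Pou4f1 and Th, had differences of 0.26 and -0.32. Th was tested through the WT arrays only.

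Glial, blood and skeletal lists complete the check. Oligodendrocyte markers summed to 121946 to 134973 in Nogo-A KO and 106564 to 110512 in WT without overlap. Their median log2 difference was 0.26, with 5 of 7 above 0, against 61% of all genes. At an unadjusted p under 0.05 in limma, 3 of 7 were higher and 0 lower, against 5.54% and 2.93% of all genes. Opalin had 0.52, Mbp 0.33, Cnp 0.32, Mag 0.26, Mobp 0.15, Mog -0.013 and Cldn11 -0.041. Sums of the Schwann cell, pan-neuronal and other motor neuron lists were also higher in Nogo-A KO without overlap. Bright probe sets weigh most in a sum. At a mean signal of 2000 and over, 10.8% of tested probe sets were higher and 0.32% lower at an unadjusted p under 0.05. The brightest of the other motor neuron list were Nefh and Rbfox3, with means of 13445 and 7892 in Nogo-A KO and 11477 and 6382 in WT. Rbfox3 is counted in the pan-neuronal sum too. Of single tested probe sets, 7.84% were higher without overlap on the deposited signals. The sum of bone and cartilage markers was lower without overlap, at 876 to 1017 in Nogo-A KO and 1036 to 1650 in WT. Only 3 of its 7 genes were tested, and the rest lay below the filter. Among probe sets below the filter, 12% were lower without overlap and 2.06% higher. Schwann cell markers of nerve roots summed to 16789.8 to 23496 in Nogo-A KO and 14051 to 16417 in WT, and their median log2 difference was 0.27 over 4 tested, with Pmp22 at 0.48, Ncmap at 0.38, Pmp2 at 0.16 and Egr2 at -0.29. Pmp22 alone averaged 18389.9 in Nogo-A KO and 13372 in WT and made up most of that sum. Microglia and macrophage markers had a median of 0.022 over 9 tested, with Csf1r at -0.18 and Lyz2 at 0.099, and neutrophil markers 0.71 over 8, with S100a8 at 0.70 and S100a9 at 0.77. The neutrophil median includes Elane, Mpo and Csf3r, which passed the filter through the Nogo-A KO arrays alone. Muscle markers had 0.44 over 9, with Pvalb, which neurons also express, at 0.13 and Acta1 at 0.49. Bone and cartilage markers had 0.0084 over 3, with Dmp1 at 0.0084 and Alpl at 0.040. None of these genes passed the adjusted threshold in limma, and their part in the values of the cholinergic and motor neuron genes was not tested.

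**Figure D4:**
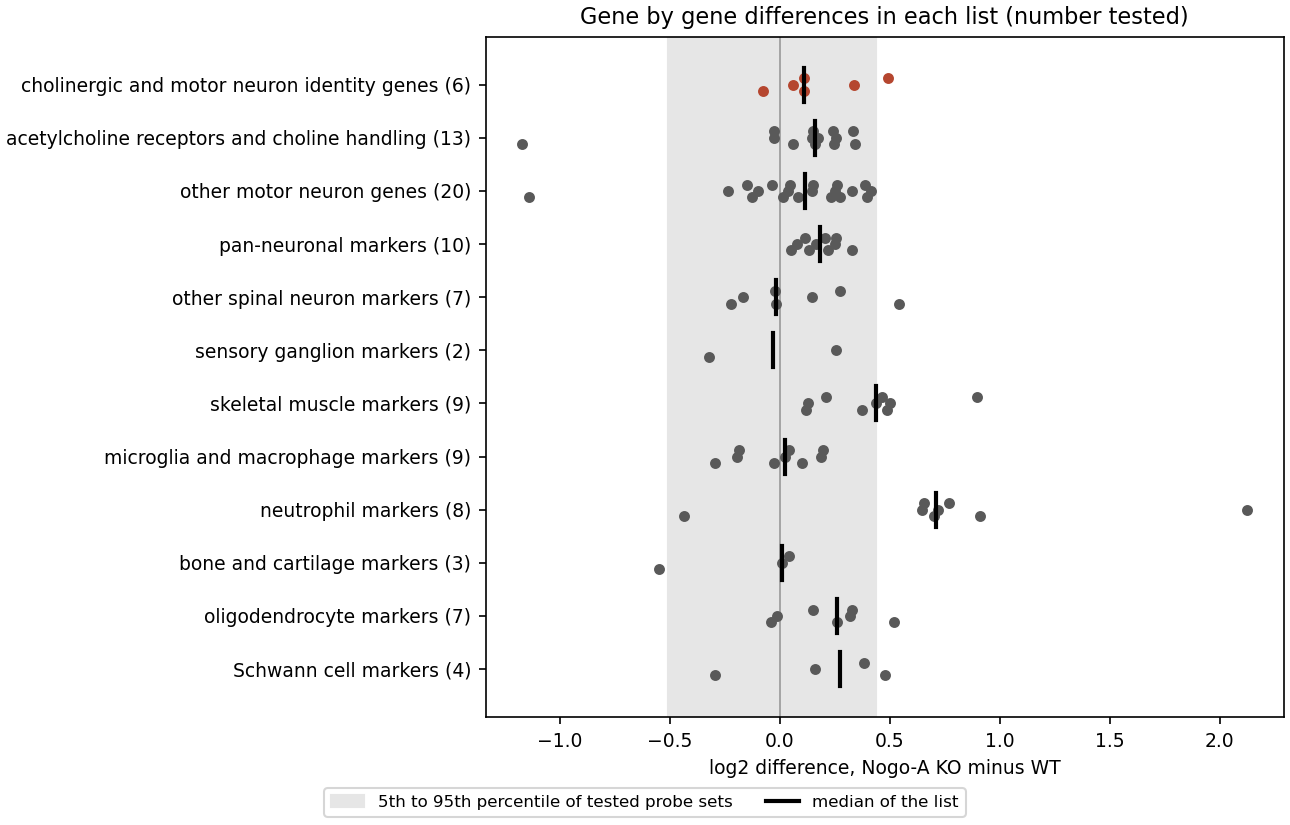
Log2 differences, Nogo-A KO minus WT, of each tested gene in the lists named on the vertical axis, with the number tested in brackets. Points are genes at their brightest tested probe set, black bars are list medians and the grey band runs from the 5th to the 95th percentile of tested probe sets with 1 symbol, from -0.51 to 0.44. Of the 6 cholinergic and motor neuron genes, Ache alone lies outside the band.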

How the data were processed

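The authors deposited linear signal intensities of 45101 probe sets, which MAS 5.0 gave in GCOS 1.4 per the labels' processing notes. The trimmed mean of each array was 500.0, so the deposited intensities were already scaled, while the later GeneSpring 7.2 steps were not part of them. Present calls were not used here.

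After removal of 64 control probe sets, the filter stated in the report left 23546 and stood in for present calls. Intensities were divided by the array's median over these probe sets, since the design text names the filter before the median step, and converted to log2. Nogo-A KO was compared with WT in limma 3.58.1 under R 4.3.3 (lmFit, eBayes with an intensity trend, two-sided), with Benjamini-Hochberg adjustment over all tested probe sets. The scripts were tested on simulated data. Precision is limited by how many arrays there are: with 3 in each group an exact permutation test of 1 value cannot go below 0.1.

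By gene identifier, 34754 of 35890 annotated probe sets matched RefSeq GRCm38.p6. In the annotation 34958 had 1 symbol and 932 several, and 9160 probe sets were unnamed here. The deposited values name no build. The genes, lists and settings were chosen with earlier results of these data known. Named were every probe set of the 10 genes and of Rtn4. From each of the 2 lists around the 10 genes, the 5 genes with the smallest p were named. The 2 brightest of each marker list and the 5 most like the mean of Chat, Slc5a7 and Slc18a3 were also named. The receptor subunits, Esrrg, Ret, Pmp2, Egr2, Opalin, Cnp, Mag, Mog, Cldn11, Slc32a1, Gad2, Slc6a5, Lmx1b, Elane, Mpo, Csf3r and the sensory ganglion genes under the median were singled out after their values were seen. Each gene of a list stands at its brightest tested probe set.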

Additional observations from a re-analysis of the deposited data

How the results depend on the processing

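No gene of the cholinergic and motor neuron set, or of the 2 lists around it, passed an adjusted p under 0.05 in limma under any of the 18 alternatives run for each, which include the methods' t-test. Over all tested probe sets, where 1 passed, the count was 2 with division by the median of all probe sets, 4 with the replicate block, 3 without both muscle-bright arrays, 0 with eBayes without the trend, 0 in the methods' t-test, and 0 to 3 with each array left out in turn (3 without WT replicate 3, and 0 without knockout replicate 2, WT replicate 1 or WT replicate 2). The cause was not tested. The methods' t-test at the thresholds of the series design (p of 0.05, 1.2-fold) gave 646 higher and 577 lower of 23546, 0 of the 7 probe sets of the cholinergic and motor neuron set, and 0 after Benjamini-Hochberg adjustment (smallest adjusted p = 0.561).

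Ache and Slc18a3 kept their direction in all 18 alternatives, with log2 differences of 0.34 to 0.73 and 0.24 to 0.53. Division by the median of all probe sets moved the median of all tested probe sets to 0.23 and the split at an unadjusted p under 0.05 to 2800 higher and 263 lower, against 1127 and 818 under the scaling of the report, and Ache and Slc18a3 were 0.69 and 0.53 there. The sign of Isl2 turned with that scaling and without a filter (0.12 each), with quantile normalization (0.030), with the filter at the 25th percentile (0.026) and without both muscle-bright arrays (0.21). Chodl was -0.00022 without those arrays. With each array left out in turn, Isl2 ranged from -0.32 to 0.18, Slc5a7 from -0.19 to 0.25 and Mmp9 from -0.067 to 0.28. The cause was not tested.

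Replicate numbers are shared between the genotypes in the labels, but no pairing of animals is known. The numbers were therefore not used as pairs in the main fit. Deviations from the group means correlated at -0.034, 0.074 and 0.11 between arrays of the same number. Between arrays of differing number they correlated at -0.12 to 0.080. With 3 arrays in each group these values cannot show whether pairs exist. With the replicate block the limma adjusted p was 0.368 for Ache and 0.524 for Slc18a3. Dim signals limit Chat, Isl1 and Mnx1, which no setting other than a looser or absent filter could test.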
